A study of Mus musculus with 6 samples.

Results

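Glutathione S-transferases join the tripeptide glutathione to reactive, electron-poor molecules, and 10 of their genes are described here in RAW264.7 cells, a mouse macrophage-like line. The members were listed by symbol, and all 10 were found among the 16108 genes of the table: the cytosolic alpha-class Gsta2 and Gsta3, mu-class Gstm1, Gstm4 and Gstm5, omega-class Gsto1 and pi-class Gstp1, and the membrane-bound Mgst1, Mgst2 and Mgst3. They were chosen with their values in acoustics-on and acoustics-off cells known, so those values are given as a description and no p-value is printed for them. Cells of the same line had attached overnight to acoustic devices and then spent 48 h there, either in silence (acoustics-off) or under a 5 kHz drive of 18 V from peak to peak (acoustics-on). Each group had 3 libraries, and the labels name no other agent. The petri-dish cells of the design were not analysed here. Nothing in the labels tells whether replicate libraries stem from separate cultures, so p-values reflect library-to-library spread alone, and that spread could be technical.

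The cytosolic enzymes are soluble dimers sorted into classes by sequence, and their conjugates leave the cell through export pumps. The microsomal enzymes belong to a separate family of membrane proteins that also includes enzymes of leukotriene and prostaglandin synthesis. In many tissues transcripts of several of these genes are induced by the transcription factor NRF2, which binds antioxidant response elements with small Maf proteins, and macrophages meet electrophiles during their own oxidative burst.

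Short transcripts were high and long ones low in acoustics-on replicate 1, and to a smaller extent in acoustics-on replicate 2 and acoustics-off replicate 2. The trend was strongest in acoustics-on replicate 1, and values are given with and without that library where results rest on it. Of 8 macrophage markers all were present, with a summed level of 27187 to 29357 FPKM (fragments per kilobase of transcript, scaled for depth) with acoustics off and 18823 to 26061 with acoustics on. The fibroblast list (4 of 4 in the table, with Dcn at 0 in every acoustics-off library) summed to 0.658 to 1.30 FPKM and 0.603 to 1.63 FPKM, the epithelial list (1 of 4 matched a row) to 0.0134 to 0.119 and 0 to 0.0756, and 0 of 4 hepatocyte markers matched a row. Most of the macrophage sum was Lyz2 (23951 to 26096 FPKM with acoustics off, 16356 to 23205 with acoustics on). Lyz2, Csf1r, Adgre1, Cd68 and Itgam were lower in every acoustics-on library than in any acoustics-off library. Of all 11664 genes tested, 17.7% were lower in that way. Ptprc overlapped, at 67.4 to 71.3 FPKM with acoustics off and 41.5 to 67.8 with acoustics on. Csf1r was at 759 to 848 FPKM and 352 to 570 FPKM, while Spi1 was at 247 to 262 and 229 to 320 and Fcgr1 at 20.5 to 26.9 and 25.3 to 39.2. The part of these differences in the results below was not tested.

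The genes lie in clusters, and close copies matter for reading their values. The Gstm genes form a cluster on chromosome 3 (107895821 to 108044894, GRCm38) in the order Gstm5, Gstm7, Gstm6, Gstm3, Gstm2, Gstm1, Gstm4. Gsta2 lies on chromosome 9 with Gsta4 and Gsta1 (78182774 to 78355788), while Gsta3 lies on chromosome 1 (21240589 to 21265661). Gstp1, Gstp2 and Gstp3 fill 24.2 kb of chromosome 19 (4035407 to 4059569). Gsto1 is on the same chromosome (47854970 to 47864790), Mgst1 on chromosome 6 (138140316 to 138156755), Mgst2 on chromosome 3 (51660360 to 51682677) and Mgst3 on chromosome 1 (167371966 to 167393841). The coding sequence of Gstp1 was 98.1% identical to that of Gstp2, and that of Gsta2 was 97.5% identical to that of Gsta1, over a global alignment of GENCODE M21 models. Reads from these pairs are hard to separate, so their single values are uncertain. Identity was 76.4% between Gsta2 and Gsta3, 73.6% between Gstm1 and Gstm4, 71.2% between Gstm4 and Gstm5 and 54.3% between Mgst2 and Mgst3.

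Promoters are shown for the 5 genes of the set that passed the threshold in the comparison below (Gsta2, Gsta3, Gstm1, Gstp1 and Mgst2), and for Gstp2, the near-copy of Gstp1. Each run is the 250 bases before the RefSeq start site (GRCm38.p6), read 5′ to 3′ on the strand of the gene. Capitals mark an AP-1 motif (TGANTCA) or the core of an antioxidant response element (TGACNNNGC), searched on both strands.
Gstp1, chr19:4037913-4038162, minus strand: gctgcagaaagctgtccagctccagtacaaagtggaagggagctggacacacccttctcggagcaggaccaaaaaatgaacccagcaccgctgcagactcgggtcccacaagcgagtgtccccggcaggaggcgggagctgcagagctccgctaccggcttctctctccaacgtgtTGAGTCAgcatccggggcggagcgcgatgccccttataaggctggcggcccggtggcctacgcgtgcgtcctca
Gstp2, chr19:4042222-4042471, minus strand: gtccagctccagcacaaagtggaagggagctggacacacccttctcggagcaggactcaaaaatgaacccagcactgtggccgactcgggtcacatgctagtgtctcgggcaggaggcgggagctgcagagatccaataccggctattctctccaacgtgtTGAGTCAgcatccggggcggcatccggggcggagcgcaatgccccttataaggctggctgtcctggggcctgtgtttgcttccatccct
Mgst2, chr3:51660929-51661178, plus strand: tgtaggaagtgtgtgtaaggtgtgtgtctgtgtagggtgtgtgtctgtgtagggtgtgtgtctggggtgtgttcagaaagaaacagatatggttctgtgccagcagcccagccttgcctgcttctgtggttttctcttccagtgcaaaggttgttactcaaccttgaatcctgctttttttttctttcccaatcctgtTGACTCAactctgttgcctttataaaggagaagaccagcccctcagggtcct
Gsta3, chr1:21240335-21240584, plus strand: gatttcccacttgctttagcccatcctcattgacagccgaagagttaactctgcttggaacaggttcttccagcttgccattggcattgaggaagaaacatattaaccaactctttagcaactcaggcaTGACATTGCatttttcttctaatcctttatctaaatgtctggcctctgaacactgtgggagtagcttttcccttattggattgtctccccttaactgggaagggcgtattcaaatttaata
Gsta2, chr9:78347146-78347395, minus strand: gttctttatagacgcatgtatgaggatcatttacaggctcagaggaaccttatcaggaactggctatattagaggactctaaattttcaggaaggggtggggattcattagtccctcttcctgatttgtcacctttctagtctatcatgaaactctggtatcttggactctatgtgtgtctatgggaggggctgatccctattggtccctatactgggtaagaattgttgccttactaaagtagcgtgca
Gstm1, chr3:108017974-108018223, minus strand: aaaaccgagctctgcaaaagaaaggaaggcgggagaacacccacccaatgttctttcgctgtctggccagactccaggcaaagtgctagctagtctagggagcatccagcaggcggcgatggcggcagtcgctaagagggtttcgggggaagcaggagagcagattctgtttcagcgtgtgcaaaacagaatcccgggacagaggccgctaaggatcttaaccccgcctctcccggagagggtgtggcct

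Counted from the start site, the AP-1 match began at position -74 in Gstp1, -89 in Gstp2 and -52 in Mgst2, and the response element match at -121 in Gsta3. Neither motif was found in Gsta2, nor at either of the 2 start sites of Gstm1, the first of which is shown. Over windows from 250 bases before to 50 after the start, all 10 genes had a promoter in the table, with 13 start sites. The response element core was found in 3 of the 10 genes (Gsta3, Gstm5 and 1 of the 2 start sites of Mgst1). That is 3 of the 13 start sites, against 12.4% of all 32851 promoters. The AP-1 motif was found in 3 genes (Gstm5, Gstp1 and Mgst2, each with 1 start site) and at 7.81% of all promoters. Both motifs allow any base at N and can overlap each other. The response element search required C after TGA, so TGAGTCAgc in Gstp1 and Gstp2 was not counted as a core. A match describes letters in this window and shows no binding, and its absence from the other windows says nothing about a factor.

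In acoustics-off cells Gstp1 was the most abundant of these transcripts per length, at 75.1 ± 3.99 FPKM (SD, n = 3). Mgst3 (53.4 ± 6.35), Gsto1 (49.4 ± 1.03) and Gstm1 (47.6 ± 2.69 FPKM) followed with overlapping libraries, and then Mgst2 at 27.1 ± 2.62 FPKM. Gstm4 averaged 3.72 ± 0.426 FPKM. Gstm5, Mgst1, Gsta2 and Gsta3 averaged between 0.0488 and 0.306 FPKM, and neighbours in that order overlapped. With acoustics on, the order of mean levels was Gstp1, Mgst2, Gstm1, Mgst3, Gsto1, Gsta2, Gstm4, Gsta3, Mgst1 and Gstm5. Mgst2 thus moved past Mgst3, Gsto1 and Gstm1 in mean level, though each of the first 4 genes of that order overlapped the next. Gsta2 also overlapped Gstm4, Gsta3 overlapped Mgst1, and Mgst1 overlapped Gstm5. The summed level of the 10 genes was 249, 268 and 255 FPKM with acoustics off and 902, 613 and 521 with acoustics on. Mgst2 made up 9.84% to 11.1% of that sum with acoustics off and 18.0% to 24.4% with acoustics on, while the share of Gsto1 went from between 18.4% and 20.3% to between 9.91% and 13.8%.

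**Figure D1:**
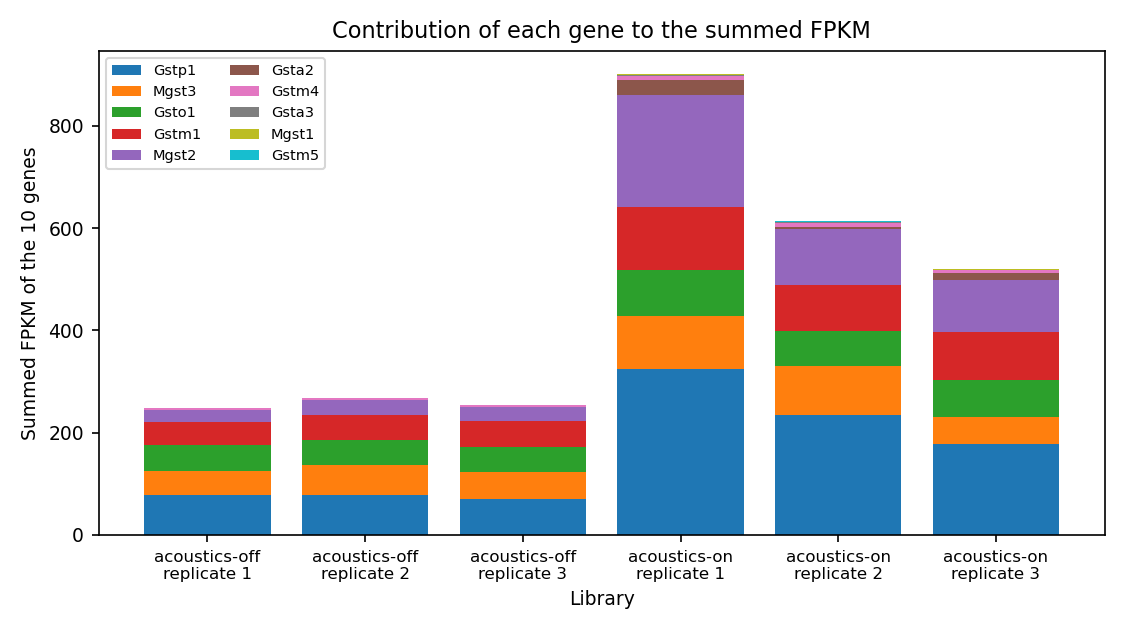
Stacked bars of the summed FPKM of the 10 glutathione S-transferase genes in each of the 6 libraries, with each colour 1 gene. The acoustics-off sums lie between 249 and 268 FPKM and the acoustics-on sums between 521 and 902 FPKM.

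All 10 genes had a higher mean with acoustics on, and the groups did not overlap for 8 of them, where 17.1% of the 11664 genes tested were higher in that way. Gstm5 and Mgst3 overlapped. In a limma test of log2(FPKM + 1) over all genes tested, Gsta2, Gsta3, Gstm1, Gstp1 and Mgst2 were past a Benjamini-Hochberg adjusted p of 0.05 and higher, against 1.50% of all genes tested. By the authors' deposited table, 8 of the 10 were past the same threshold and higher, all but Gstm5 and Mgst3, against 5.08% of the genes with an adjusted p there, while 0 were lower against 2.49%. Because the genes were chosen on this contrast, nothing is read from these counts. None of the 10 was lower, where 0.574% of all genes tested passed as lower and 17.7% had groups apart and lower. All 10 passed the filter on low values (at least 0.5 FPKM in at least 3 libraries), but Gsta2, Gsta3 and Mgst1 did so only through the acoustics-on libraries. In bulk RNA, fewer cells with a transcript and less of it per cell cannot be told apart. Log2 differences below were taken after adding 1 to each FPKM, so those of low genes are smaller than their true change.

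**Figure D2:**
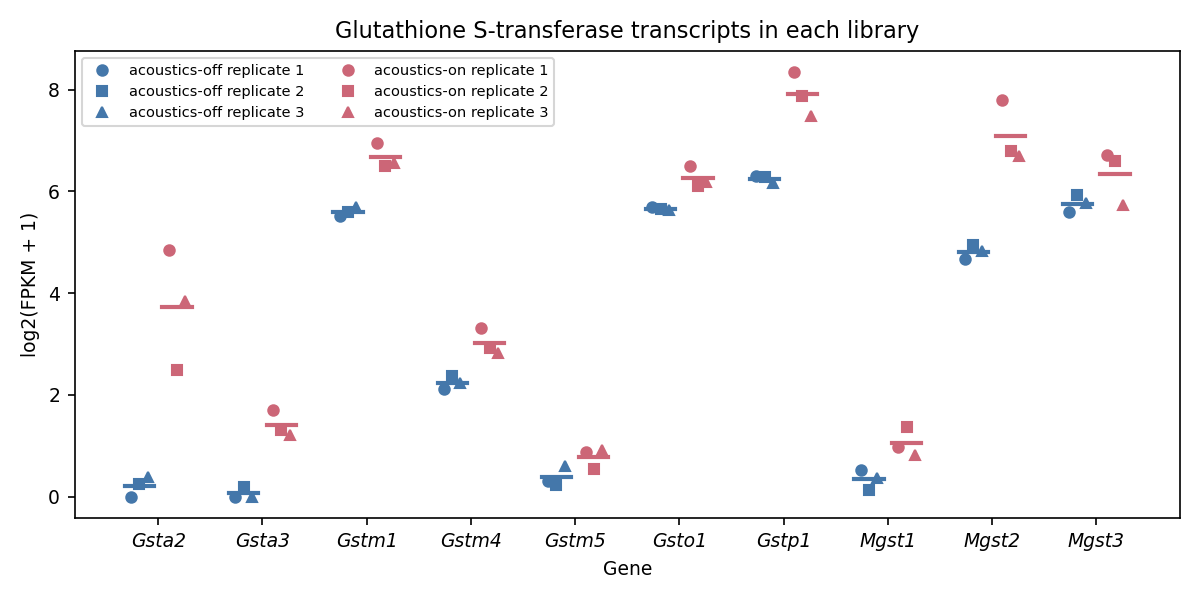
Level of each gene as log2(FPKM + 1) in the 3 acoustics-off (blue) and 3 acoustics-on (red) libraries, with symbols for replicates and lines for group means. The groups stand apart for 8 genes and overlap for Gstm5 and Mgst3.

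The alpha class was close to absent with acoustics off. Gsta2, whose product conjugates glutathione and also reduces organic peroxides, was at 0, 0.190 and 0.309 FPKM with acoustics off and at 27.8, 4.62 and 13.4 FPKM with acoustics on. The acoustics-on libraries were all above the acoustics-off ones but spread widely, the lowest being 16.6% of the highest. The acoustics-off values correspond to 0, 4.74 and 7.70 normalised reads and the acoustics-on values to 692, 115 and 335. The log2 difference was 3.52 (SE 0.53), and 2.96 (SE 0.38) without acoustics-on replicate 1. Gsta3, a second alpha-class gene known in rodents for conjugating aflatoxin epoxide, was at 0, 0.146 and 0 FPKM and at 2.25, 1.47 and 1.32 FPKM. These rest on 0, 4.66 and 0 normalised reads and on 71.6, 46.9 and 42.1. All 3 acoustics-on libraries were above the single acoustics-off value over 0, and the log2 difference was 1.34 (SE 0.16). With so few reads in the acoustics-off libraries no fold is given for either gene.

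The mu class held both an abundant gene and very low ones. Gstm1, the major mu-class gene, was at 45.0, 47.4 and 50.4 FPKM with acoustics off and at 123, 89.5 and 93.3 FPKM with acoustics on. Its groups were well apart, with a ratio of means of 2.14 and a log2 difference of 1.07 (SE 0.15). Gstm4, its neighbour in the cluster, was at 3.32, 4.16 and 3.68 FPKM and at 9.01, 6.54 and 6.11 FPKM. The groups were apart, with a ratio of means of 1.94 and a log2 difference of 0.79 (SE 0.17). Gstm4 did not pass the threshold with all libraries and did so without acoustics-on replicate 1 (0.64, SE 0.11) and with the trend of transcript length and GC content divided out of each library (0.60, SE 0.11). Gstm5, at the far end of the cluster, was at 0.234, 0.169 and 0.515 FPKM and at 0.829, 0.459 and 0.894 FPKM. Acoustics-on replicate 2 lay below acoustics-off replicate 3, and at most 25.7 normalised reads stood behind any of these values.

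The pi-class gene Gstp1 encodes a widely expressed enzyme that also binds the stress kinase JNK. It was at 77.6, 77.2 and 70.5 FPKM with acoustics off and at 324, 235 and 178 FPKM with acoustics on. The lowest acoustics-on library was above every acoustics-off library, the ratio of means was 3.27 and the log2 difference was 1.66 (SE 0.22). Its near-copy Gstp2, which is not among the 10 genes, was at 3.24, 3.32 and 2.45 FPKM and at 12.0, 10.5 and 9.47 FPKM (log2 difference 1.54, SE 0.15, limma adjusted p = 0.0072). Gstp2 took 3.36% to 4.13% of the sum of the pair with acoustics off and 3.56% to 5.04% with acoustics on. The sum of the pair, which depends little on how reads were split between them, averaged 78.1 ± 4.47 and 256 ± 74.9 FPKM. The pseudogene Gstp-ps on chromosome 1, named after its values were seen, averaged 1.06 ± 0.296 and 4.48 ± 1.42 FPKM, and how many of its reads belong to Gstp1 was not tested.

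Gsto1, an omega-class gene whose product has glutathione-dependent reductase activity, was at 50.4, 49.4 and 48.4 FPKM with acoustics off and at 89.4, 68.0 and 72.0 FPKM with acoustics on. The groups did not overlap, the ratio of means was 1.55 and the log2 difference was 0.61 (SE 0.14). That difference was 0.30 (SE 0.11) with the length and GC trend divided out. Without acoustics-on replicate 1 it was 0.49 (SE 0.07), and Gsto1 then passed the threshold.

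Of the 3 microsomal genes, Mgst2 and Mgst3 were abundant and Mgst1 was low. Mgst2, whose product has glutathione transferase and leukotriene C4 synthase activity, was at 24.5, 29.7 and 27.3 FPKM with acoustics off and at 220.3, 110.4 and 102 FPKM with acoustics on. Every acoustics-on library was far above the acoustics-off range, the ratio of means was 5.31 and the log2 difference was 2.28 (SE 0.29). It was 1.93 (SE 0.10) without acoustics-on replicate 1, and the remaining libraries were close together. Mgst3, which encodes a related glutathione peroxidase and transferase, was at 47.0, 59.7 and 53.4 FPKM and at 104, 96.1 and 52.4 FPKM. Acoustics-on replicate 3 lay within the acoustics-off range while replicates 1 and 2 lay above it, and the log2 difference was 0.59 (SE 0.27). Mgst1, a liver-rich microsomal enzyme, was at 0.432, 0.102 and 0.283 FPKM and at 0.973, 1.57 and 0.762 FPKM. Its groups were apart, replicate 2 was its highest acoustics-on library, and between 3.24 and 50.2 normalised reads stood behind each value.

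The acoustics-on libraries did not rank alike. Replicate 1 was the highest acoustics-on library for 8 of the 10 genes, against 40% of all genes tested, the exceptions being Mgst1 and Gstm5. These transcripts are short: by the length that the deposited tables imply (normalised reads per FPKM) they lay between the 5.26 percentile (Mgst2) and the 33.9 percentile (Gstm4) of the genes tested. In replicate 1 the median gene of the bins that hold them was 0.24 to 0.57 above the acoustics-off mean on the log2 scale, in replicate 2 it was 0.10 to 0.19 above, and in replicate 3 it lay between -0.08 and 0.02. Across 10462 annotated genes the Spearman rank correlation of the difference from the acoustics-off mean with the implied length was -0.59, -0.49 and 0.03 in acoustics-on replicates 1, 2 and 3, and genes are not independent replicates. The part of this trend in the differences was not tested beyond the corrected values below. In each of the 3 acoustics-on libraries, 9 of the 10 genes were above the median of their own length bin. The exceptions were Gstm5 in replicates 1 and 2 and Mgst3 in replicate 3. A median has as many genes above it as below it. Since the 10 genes were chosen on this contrast, nothing is read from the count above it. In replicate 3 the rank correlation with length was 0.03, though the medians of the shortest bins were -0.21, -0.08 and -0.05. In that library Gsta2 was 3.72, Mgst2 1.95, Gstp1 1.32, Gsta3 1.20 and Gstm1 0.95 above their bins on the log2 scale. Gstm5 was 0.59, Gstm4 0.57, Gsto1 0.53 and Mgst1 0.53 above theirs, and Mgst3 was at -0.03.

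**Figure D3:**
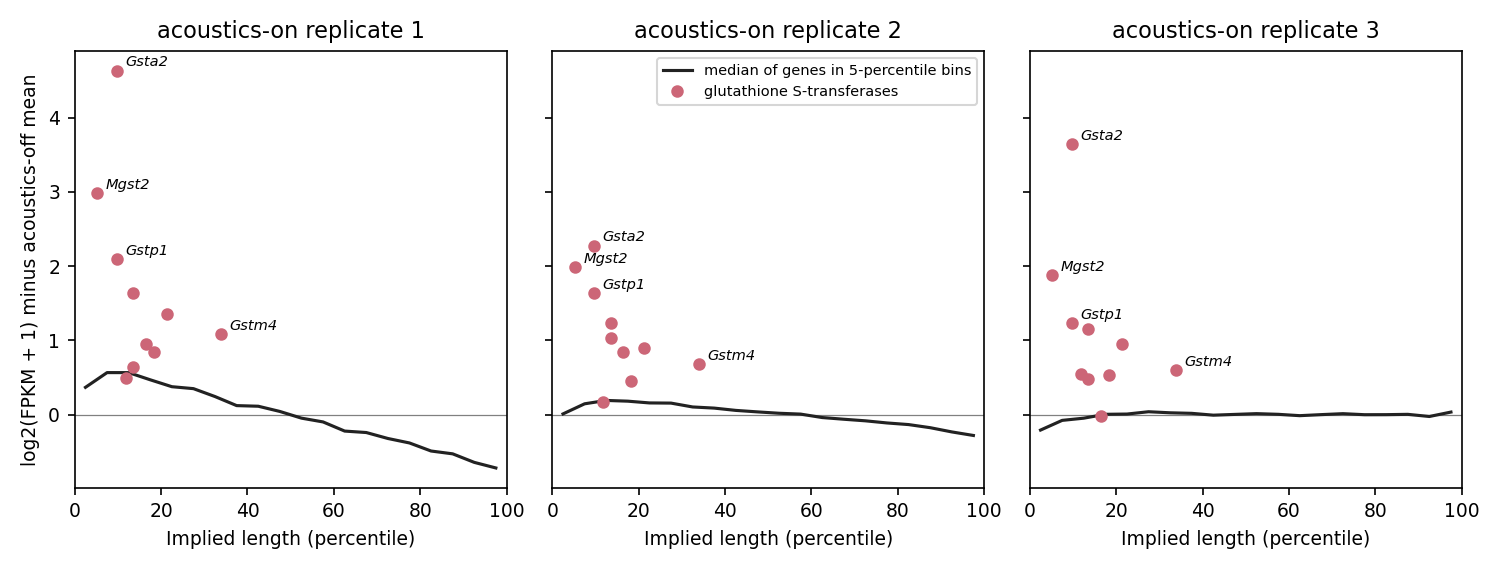
Difference of each acoustics-on library from the acoustics-off mean in log2(FPKM + 1) against the percentile of implied transcript length. The line is the median of all genes in bins of 5 percentiles and the points are the 10 glutathione S-transferase genes, 9 of which lie above the line in each panel.

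With the trend of each library on transcript length and GC content divided out, the log2 differences of all 10 genes remained above 0 and ranged from 0.26 (Mgst3) to 3.33 (Gsta2). The 5 genes past the threshold were past it again, joined by Gstm4, against 2.21% of all genes tested being higher. Gsta2 and Gsta3 passed the filter only through the acoustics-on libraries, so nothing is read from their tests, here or in the counts below. With the trend divided out Gstp1 averaged a difference of 1.30 (SE 0.09) and Gstm1 0.78 (SE 0.11). The trend used the longest annotated transcript, of 2803 bases for Mgst2 and 2792 for Gsta3. Their fitted trend in acoustics-on replicate 1 was -0.03 and -0.04, against 0.57 for Gsta2 and 0.65 for Gstp1. Mgst2 and Gsta3 were thus hardly corrected there (2.22 and 1.32). A correction for the implied length, chosen after seeing the data, gave 1.95 and 1.24. Without acoustics-on replicate 1, 7 genes were past the threshold, against 4.75% of all genes tested. Without it and with the trend divided out as well, 6 passed, against 5.44%. Without acoustics-on replicate 2, 5 passed, against 2.08%. Without acoustics-on replicate 3 the genes past the threshold were Gsta3, Gstp1 and Mgst2, against 0.540% of all genes tested. Without any 1 of the acoustics-off libraries, 0 of 10 passed in limma, against 0.120% to 0.171% of all genes tested. All 10 differences were above 0 in each of these fits.

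**Figure D4:**
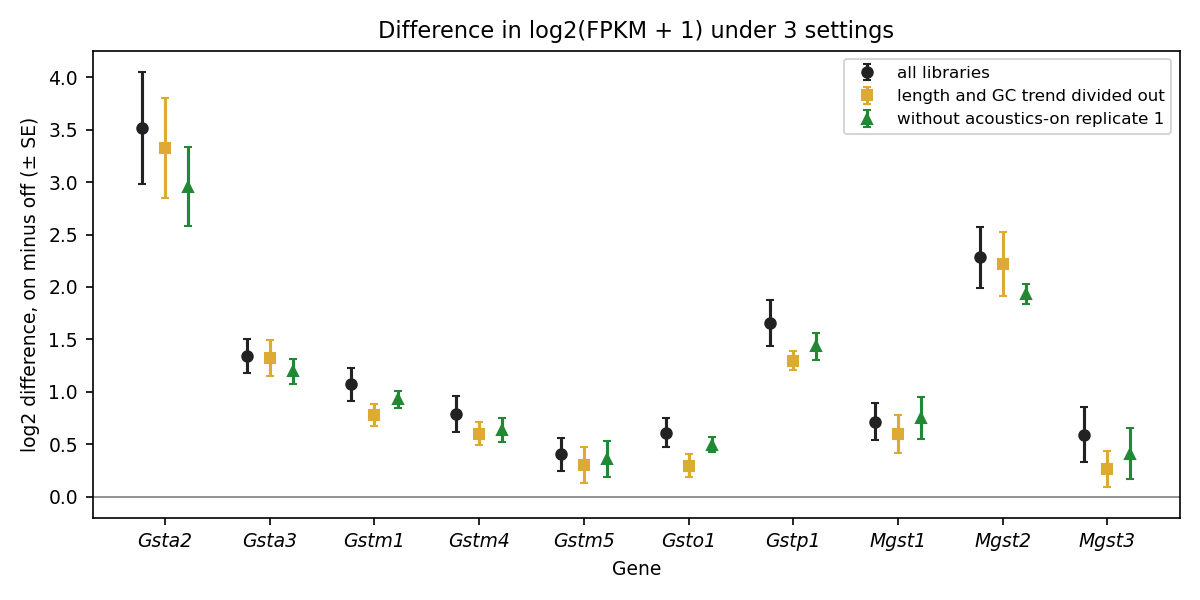
Difference in log2(FPKM + 1), acoustics-on minus acoustics-off, with its standard error for each gene, with all libraries (black), with the length and GC trend divided out (yellow) and without acoustics-on replicate 1 (green). All points lie above 0, and Gsta2 and Mgst2 have the highest ones in each setting.

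The rest of the family was read from a list of 22 other transferase and microsomal family genes. Of these 16 were in the table and 10 passed the filter. Among the 10, Gstp2 and Ptges rose and 0 fell in limma (1.50% and 0.574% of all genes tested). By the authors' deposited table, of 14 with an adjusted p, 3 were higher (Gsta1, Gstp2 and Ptges) and 1 lower (Hpgds), against 5.08% and 2.49% of all genes there. Gstp2 and Gsta1 are near-copies of Gstp1 and Gsta2, which were chosen on this contrast. Their reads are hard to separate, so their calls may repeat those of the chosen genes, which was not tested. The median log2 difference of the 10 tested genes was 0.17, beside -0.03 over all genes tested. It was 0.06 beside -0.02 with the length and GC trend divided out. Without any 1 acoustics-off library, 0 of the 10 passed in limma as higher. Without acoustics-on replicate 2, 1 passed as lower, against 154 of all 11664 genes tested. Ptges, the microsomal prostaglandin E synthase and a relative of the Mgst genes, was at 2.87, 2.60 and 2.78 FPKM with acoustics off and at 8.24, 7.98 and 12.4 FPKM with acoustics on. Replicate 3 was its highest acoustics-on library, and the log2 difference was 1.47 (SE 0.18, limma adjusted p = 0.015).

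Hpgds, the sigma-class enzyme that makes prostaglandin D2, was at 27.3, 28.3 and 29.2 FPKM with acoustics off and at 16.5, 23.0 and 16.4 FPKM with acoustics on. Its groups were apart and lower, but it did not pass in limma (log2 difference -0.59, SE 0.16, adjusted p = 0.12). In the authors' deposited table its log2 fold change was -0.60 (adjusted p = 0.033). Ltc4s, the leukotriene C4 synthase, averaged 73.9 ± 3.53 and 75.5 ± 16.4 FPKM (adjusted p = 0.99). Alox5ap, which presents arachidonic acid to 5-lipoxygenase, averaged 288 ± 12.3 and 399 ± 157 FPKM (adjusted p = 0.44).

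The theta-class genes gave small differences. Gstt1 averaged 1.17 ± 0.0230 and 1.54 ± 0.276 FPKM, Gstt2 0.446 ± 0.139 and 0.583 ± 0.201, and Gstt3 4.13 ± 0.436 and 5.43 ± 1.28, with adjusted p from 0.34 to 0.60. Gstz1, which acts in tyrosine breakdown, averaged 13.3 ± 0.224 and 14.1 ± 3.15 FPKM, and Gstcd 3.63 ± 0.0996 and 3.09 ± 0.734 FPKM (adjusted p = 0.85 and 0.50). Below the filter, Gsta1 was listed at 0 in all acoustics-off libraries and at 0.848, 0.320 and 0.137 FPKM with acoustics on. Together with Gsta2, its near-copy, it summed to 28.6, 4.94 and 13.6 FPKM with acoustics on, so the pair followed the values of Gsta2. Gsta4, Gstm2 and Gstp3 also had groups apart and higher, at 0.756 ± 0.340, 0.280 ± 0.152 and 0.240 ± 0.157 FPKM with acoustics on, and Gstm7 and Gstk1 overlapped. Gsta4 rested on 7.21 to 12.2 and 15.5 to 36.3 normalised reads, Gstm2 on 0 to 1.26 and 3.43 to 12.5, and Gstp3 on 0 to 1.05 and 2.80 to 8.05. How often groups stood apart among all genes below the filter was not computed, so nothing is read from these separations.

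**Figure D5:**
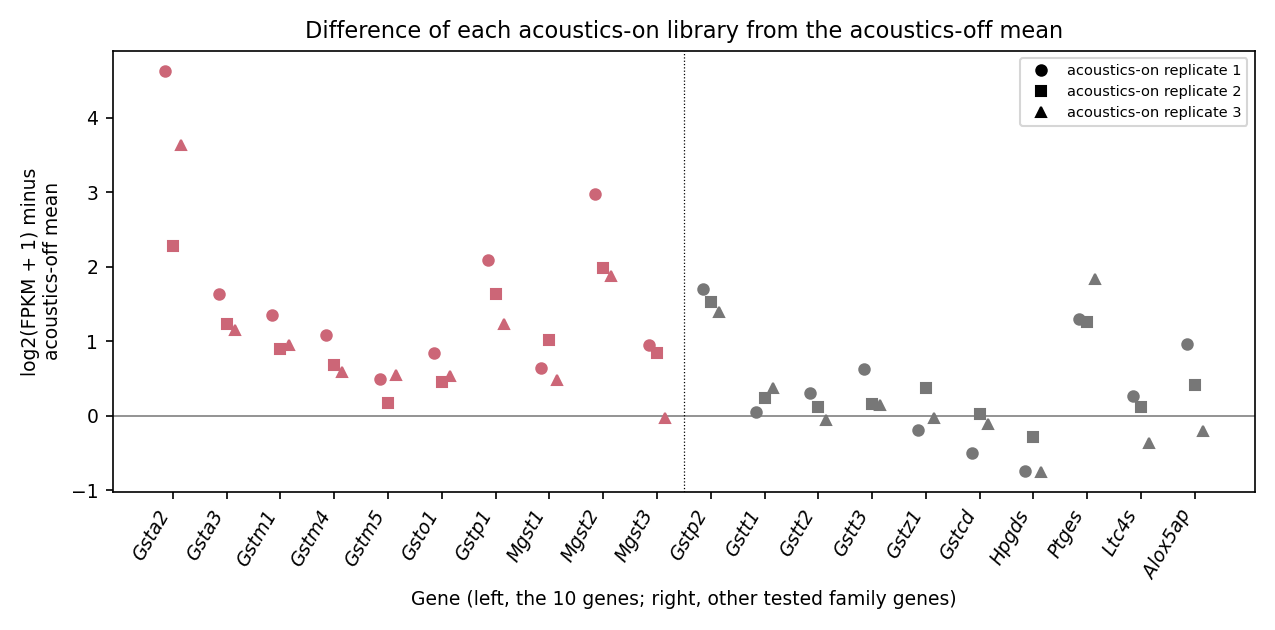
Difference of each acoustics-on library from the acoustics-off mean in log2(FPKM + 1), with the 10 chosen genes in red and the 10 other tested family genes in grey. Hpgds lies below 0 in all 3 libraries, and Gstp2 and Ptges lie above 1 in all 3.

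Of 13 genes that supply glutathione, all tested, Gclm and Glrx rose and 0 fell (limma, 1.50% of all genes tested higher and 0.574% lower), and 6 were higher in the authors' deposited table, against 5.08% of all genes there. Without any 1 acoustics-off library 1 of the 13 passed as higher, against 0.120% to 0.171% of all genes tested. Without acoustics-on replicate 1, 6 did, against 4.75%. Gclm, the modifier subunit of glutamate-cysteine ligase, was at 35.5, 36.3 and 38.9 FPKM with acoustics off and at 308, 187 and 313 FPKM with acoustics on. Glrx, which encodes a glutaredoxin that removes glutathione from proteins, went from 51.9 ± 2.84 to 103 ± 8.08 FPKM (log2 difference 0.97, SE 0.12, adjusted p = 0.014). The cystine importer gene Slc7a11 was at 6.63, 8.60 and 23.7 FPKM with acoustics on, highest in replicate 3, against 1.88 ± 0.120 with acoustics off (adjusted p = 0.058). Gss, glutathione synthetase, averaged 18.6 ± 0.491 and 32.3 ± 6.09 FPKM (adjusted p = 0.063).

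Genes for export and further processing of the conjugates did not pass. Of 10 tested, 0 rose and 0 fell in limma (1.50% and 0.574% of all genes tested). At an unadjusted p under 0.05, 2 were higher and 1 lower. The share of all genes at that unadjusted threshold is not given, so nothing is read from these counts. The authors' deposited table gave 1 higher (Ggt1, below the filter here) and 1 lower (Abcc3), against 5.08% and 2.49% of all genes there. The export pump gene Abcc3 averaged 9.66 ± 1.36 and 5.68 ± 1.13 FPKM (adjusted p = 0.12), and Abcc5 22.3 ± 1.36 and 28.8 ± 2.80 FPKM (adjusted p = 0.20). The dipeptidase gene Cndp2 averaged 109 ± 2.40 and 147 ± 25.9 FPKM (adjusted p = 0.22), and the aminoacylase gene Acy1 28.6 ± 2.38 and 36.2 ± 9.54 FPKM (adjusted p = 0.40).

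Other enzymes that handle quinones, carbonyls and their conjugates numbered 23 tested, of which 6 passed as higher and 0 as lower, against 1.50% and 0.574% of all genes tested. Nqo1, a quinone reductase gene, was at 0.332, 0.407 and 0.215 FPKM with acoustics off and at 2.90, 5.95 and 3.26 FPKM with acoustics on. It is 1 of the 6 but passed the filter only through the acoustics-on libraries, so nothing is read from its test. The reductase genes Akr1b8 (118 ± 3.06 to 285 ± 57.2 FPKM), Cbr3 (23.9 ± 0.794 to 58.0 ± 14.8) and Akr1c13 (10.2 ± 0.828 to 20.0 ± 3.03) rose (adjusted p = 0.019, 0.029 and 0.035). So did Esd, which hydrolyses S-formylglutathione, from 878 ± 7.43 to 2207 ± 407 FPKM, and the glucuronosyltransferase gene Ugt1a6a, from 4.16 ± 0.569 to 14.3 ± 5.71 FPKM. Without any 1 acoustics-off library 0 of the 23 passed in limma. Without acoustics-on replicate 3, 3 did, against 0.540% of all genes tested. With a filter of any value above 0, 3 did, against 0.720%. Ugt1a6a shares exons with other genes of its locus, which leaves its value uncertain.

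Among 13 genes of NRF2 and its partners, Sqstm1 and Mafg passed as higher and the aryl hydrocarbon receptor gene Ahr as lower, against 1.50% and 0.574% of all genes tested. Neither Sqstm1 nor Mafg passed under quantile normalisation or with a filter of any value above 0. Mafg, a small Maf partner, went from 29.5 ± 0.431 to 51.4 ± 8.33 FPKM (adjusted p = 0.047), and Sqstm1, which encodes a KEAP1-binding autophagy receptor, from 275 ± 2.63 to 730.5 ± 207 FPKM (adjusted p = 0.039). Ahr was at 1.11, 1.19 and 1.27 FPKM and at 0.246, 0.453 and 0.421 FPKM, and since it passed the filter only through the acoustics-off libraries nothing is read from its test. Mafk, another small Maf gene, was between 21.4 and 22.5 FPKM and between 14.1 and 17.2 FPKM (adjusted p = 0.14). Without any 1 acoustics-off library, or without acoustics-on replicate 3, 0 of the 13 passed in limma in either direction. Without acoustics-on replicate 1, 2 were lower, against 359 of all 11664 genes tested. The NRF2 gene itself, Nfe2l2, named after its values were seen, missed the threshold (adjusted p = 0.29), with 87.3 ± 2.74 FPKM in acoustics-off and 72.6 ± 8.17 FPKM in acoustics-on cells.

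Over the 6 libraries, the genes whose log2(FPKM + 1) was most like that of Gstp1 were Rit1, Rnf181 and Tfec (Pearson r = 0.9985, 0.9977 and 0.9975). Those most like Gsta2 were Hmox1, Psmd12 and Rps6kb2 (r = 0.9986, 0.9984 and 0.9977). All 6 values share the libraries and the difference between groups, and 303 and 374 of 11654 genes had r above 0.95 with Gstp1 and Gsta2, so these likenesses single out no gene.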

How the data were processed

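RNA from 6 libraries was analysed. Per the labels, libraries followed a ribosomal RNA depletion kit although the molecule field says polyA RNA. The submitters' processing notes name DESeq2 1.38.2, Salmon 1.4.0, STAR 2.7.11, Trim Galore 0.6.8 and GRCm38, without settings. The authors deposited FPKM per gene. The authors' deposited comparison table gives a mean normalised count (coverage signal), log2 fold changes, a test score and p-values. Their FPKM had the same median-ratio factor (1.01) in every library, so depth differences were already divided out. Normalised reads per library were computed as FPKM times the mean normalised count over the mean FPKM. With that, 64.9% to 68.8% of values under 8 lay within 0.05 of a whole number, so reads were not recovered, no count test was run and limma replaced the planned edgeR test.

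limma 3.58.1 in R 4.3.3 (trended, robust prior) was run on log2(FPKM + 1) for 11664 genes with at least 0.5 FPKM in at least 3 libraries, without a replicate block, and p-values were adjusted by Benjamini-Hochberg over all of them (threshold 0.05). It was tested on simulated data. The length and GC correction fitted a loess trend (span 0.5) on the longest GENCODE M21 transcript over 9942 protein-coding genes. The members and gene lists were chosen with earlier results of these data known. Named were the 10 members, the tested family genes, up to 4 genes with the smallest p of each other list and all past the threshold where 6 or fewer, and the 3 genes most alike to 2 members. RefSeq promoters matched 10 of 10 members. Coding sequences were aligned with Biopython 1.88. The tables hold no raw counts, so the depth of each library is unknown, and precision is limited by 3 libraries per group.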

Additional observations from a re-analysis of the deposited data

How the results depend on the processing

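The log2 differences of the 10 genes stayed above 0 in all alternatives in which they were tested, and 135 of 158 kept their side of the threshold. Since the genes were chosen on this contrast, nothing is read from the signs. The 18 losses of the threshold all fell on the 5 genes past it (Gsta2 5, Gstm1 4, and Gsta3, Gstp1 and Mgst2 3 each). Gains numbered 5 (Gstm4 4 and Gsto1 1). Median-ratio scaling, 1 of the alternatives, could hardly change a call, since its factor was the same in every library. With each library left out in turn, the number of the 10 genes that passed went from 0 to 7. Over all 11664 genes tested, 0.120% to 4.75% were then higher and 5 to 359 genes lower. For the other family genes the number that passed went from 0 to 2 higher and from 0 to 1 lower. For genes of glutathione supply and use it went from 1 to 6 higher, and for quinone and aldehyde enzymes from 0 to 8. For NRF2 and its partners it went from 0 to 2 higher and 0 to 2 lower. Quantile normalisation gave 4 genes of glutathione supply and use higher and 0 of the NRF2 list higher, against 1.79% of all genes tested. A filter of any value above 0 gave 3 quinone and aldehyde enzymes and 0 of the NRF2 list higher, against 0.720% of all genes tested. The length and GC correction without acoustics-on replicate 1 gave 6 supply and use genes and 2 export genes higher and 3 of the NRF2 list lower. Of all 11664 genes tested, 5.44% were higher and 690 genes lower in that setting. A correction for the implied length, chosen after seeing the data, gave 5 supply and use genes higher, against 2.67% of all genes tested. In each of these the cause was not tested. The alternative of edgeR or DESeq2 on counts was not run, since whole reads were not recovered. Leaving out 1 library also leaves 2 in its group.

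No pairing by replicate number was seen: same-numbered libraries had correlations of deviations of -0.07, -0.02 and -0.0039. Differently numbered libraries had correlations from -0.12 to 0.12. With 3 libraries per group these values cannot tell whether the samples were paired in some way. With a replicate block, 5 of the 10 genes passed (1.14% of all genes tested were higher), and 1 of the NRF2 list was higher and 0 lower. Below about 1 FPKM few reads limit Gsta3, Gstm5 and Mgst1.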
